A study of Mus musculus with 10 samples.

Results

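The protocadherin alpha (Pcdha) cluster of the mouse is a run of 14 protein-coding genes, Pcdha1 to Pcdha12, Pcdhac1 and Pcdhac2, on chromosome 18. All CpG cytosines that had 5 or more reads in each library were taken, on either strand, from a fixed window around these genes (mm10). This gave 1057 cytosines in 694 CpGs, the first at 36926488 and the last at 37198475, out of 6745376 cytosines in the whole table. The assay was RRBS, reduced-representation bisulfite sequencing of DNA methylation, which reads restriction fragments rather than the whole genome, in spermatogonia from testes of pups at postnatal day 6. The pups came from an Id4-eGfp transgenic line, LT-11B6, on the C57BL/6 background, in which EGFP reports the gene Id4. EGFP-positive cells were sorted by antibody against the surface protein TSPAN8, and the most strongly stained cells formed the TSPAN8-high fraction and the most weakly stained the TSPAN8-low fraction. Both fractions therefore carried the same transgene and passed the same EGFP gate, and no treatment is labelled. Each fraction was 1 library from 5 pooled sorts, so no error between replicates exists. All tests below compare 2 libraries, and all intervals cover counting error only. Where a pair of values is given without names, the first belongs to TSPAN8-high and the second to TSPAN8-low.

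Clustered protocadherins are adhesion molecules that give single neurons distinct surface identities. Each Pcdha gene has its own promoter and its own large variable exon, which encodes the extracellular, transmembrane and part of the intracellular protein, and this exon is spliced to constant exons at the far end of the cluster that all members share. Pcdha1 to Pcdha12 are known to be chosen at random in single neurons, whereas Pcdhac1 and Pcdhac2 (the C-type members) are expressed more uniformly. Promoters of this family bind the architectural factor CTCF in the unmethylated state, and methylation at these promoters is known to go with silencing.

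The gene table used here (RefSeq, GRCm38.p6) gives the ends of each gene but no strand or exon. They end between 37187657 and 37187663, except Pcdha6 at 37188897, and 37187663 is taken as the shared end. Their lower-coordinate ends, from 36930285 for Pcdha1 to 37143678 for Pcdhac2, differ and were taken as the starts of the variable exons. The first 2500 bp from each start are called the variable exon segment, the 1000 bp before it the promoter segment, and the stretch from 37146178 to the shared end the constant region, which holds the constant exons and the introns between them. Levels are methylated reads over all reads, pooled over the cytosines of a segment, unless a mean over cytosines is named. The gene records Gm37013, Gm38666 and Gm38667 start beside Pcdha4, Pcdha6 and Pcdha7 but run on through the gamma cluster, and they were not counted as members.

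TSPAN8-high gave 12491 reads to the cluster and TSPAN8-low 12544, and the median cytosine had 10 reads, as over the whole table. The labelled cell type was checked here by methylation alone. No RNA was measured, and the 8 chromatin samples of these fractions were not analysed. Of 5 imprinted genes (Snrpn had no measured window) known to be methylated on the maternal copy in somatic cells, 4 were measured at their CpG-richer end, at 0.290% to 13.2% in TSPAN8-high and 0.446% to 13.4% in TSPAN8-low. All 5 germline genes that somatic cells methylate, among them Dazl (2.48% and 1.40%) and Ddx4 (4.18% and 2.79%), were below 20% in both. Among all gene end windows, 1 kb either side of both ends of each protein-coding gene, 59.3% were below 20% in both libraries. A level below 20% thus does not by itself tell the cell type.

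Methylation along the cluster alternated between unmethylated variable exons and methylated sequence between and after them. Over all 1057 cytosines the pooled level was 39.1% and 39.0%. In TSPAN8-high 574 cytosines were below 20%, 151 between 20% and 80% and 332 above 80%, and in TSPAN8-low the counts were 572, 159 and 326. Cytosines below 20% thus made up 54.3% and 54.1% of the cluster, against 19.3% of the whole table in either library. Both libraries were below 20% at 551 cytosines and above 80% at 287, and at 365 cytosines no methylated read was seen in either library. The 2 strands of 363 CpGs were read separately, and their levels lay within 20 percentage points of each other at 90.1% of these CpGs for TSPAN8-high and at 90.9% for TSPAN8-low.

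**Figure D1:**
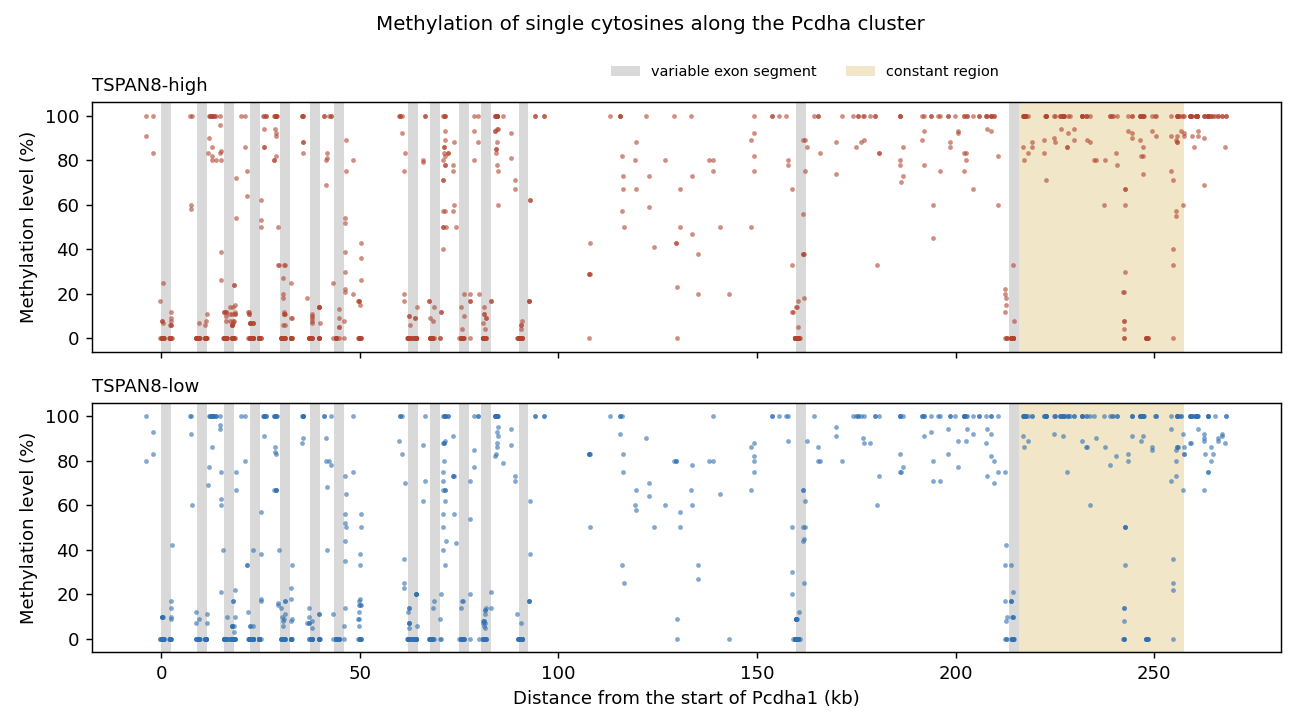
Methylation level (%) of each of the 1057 cytosines against distance from the start of Pcdha1 (kb), with TSPAN8-high above and TSPAN8-low below; grey bands are the 14 variable exon segments and the yellow band is the constant region. In both libraries most points in the grey bands lie near 0, most points in the constant region lie above 80%, and those between the bands spread from 0 to 100%.

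Of the 4 kinds of segment, the variable exons were the least methylated, and the 500 bp before the starts were at a like level (3.18% and 2.98%). Their 428 cytosines had a pooled level of 3.65% (95% exact interval 3.15 to 4.21) and 3.24% (2.76 to 3.77), and 414 and 413 of them were below 20%. All 14 genes were measured, with 14 to 48 cytosines each. The median gene stood at 2.28% and 1.85%, and 13 of 14 genes were below 10% in both libraries.

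Among the stochastically chosen members, the first of the array, Pcdha1, was at 2.19% and 1.96%, and its neighbour Pcdha2 at 1.99% and 1.67%. Pcdha3 had 3.87% and 1.49%, and Pcdha4 had 1.17% and 1.08%. Pcdha5 was at 5.87% and 2.31% and Pcdha6 at 6.27% and 1.63%, the highest levels in TSPAN8-high within this group. These first members thus differed from one another by a few percentage points at most. Further along, Pcdha7 stood at 4.27% and 1.10%, Pcdha8 at 1.06% and 2.27%, and Pcdha9 at 1.85% and 2.13%. Pcdha10 had 2.82% and 1.74%, Pcdha11 had 2.38% and 4.19%, and Pcdha12 had 1.48% and 0.304%, the lowest level of any variable exon in TSPAN8-low. By pooled level TSPAN8-high was the higher library in 9 of these 12 genes. These were all 7 from Pcdha1 to Pcdha7 and 2 of the 5 from Pcdha8 to Pcdha12, a split made after the values were seen. By the mean over cytosines, Pcdha1 and Pcdha4 were instead lower in TSPAN8-high (differences -0.0244 and -0.474 percentage points), and Pcdha10 was equal. Pooled, the variable exons of Pcdha1 to Pcdha12 were at 2.73% and 1.88% (difference 0.847 percentage points, 95% Newcombe interval 0.212 to 1.49).

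The C-type members differed from each other. Pcdhac2 was the lowest of the 14 in TSPAN8-high, at 0.958%, and the second highest in TSPAN8-low, at 4.87%, whereas Pcdhac1 had 18% (95% exact interval 14.1 to 22.5) and 20.2%, the highest level of the 14 in both libraries. The methylation of Pcdhac1 lay in the later part of its segment. From 1500 to 2500 bp after the start, 8 of its cytosines were at 54.8% in TSPAN8-high (104 reads) and 53.3% in TSPAN8-low (107 reads), while the 500 bp before the start, with 23 cytosines, were at 0.667% and 2.49%. The other 7 genes measured from 1500 to 2500 bp were below 10% in both libraries, and Pcdha4 had no methylated read among 196 and 168, so that up to 1.53% and 1.79% are allowed. No measured cytosine fell in that stretch in Pcdha5, Pcdha9, Pcdha10, Pcdha11, Pcdha12 or Pcdhac2.

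**Figure D2:**
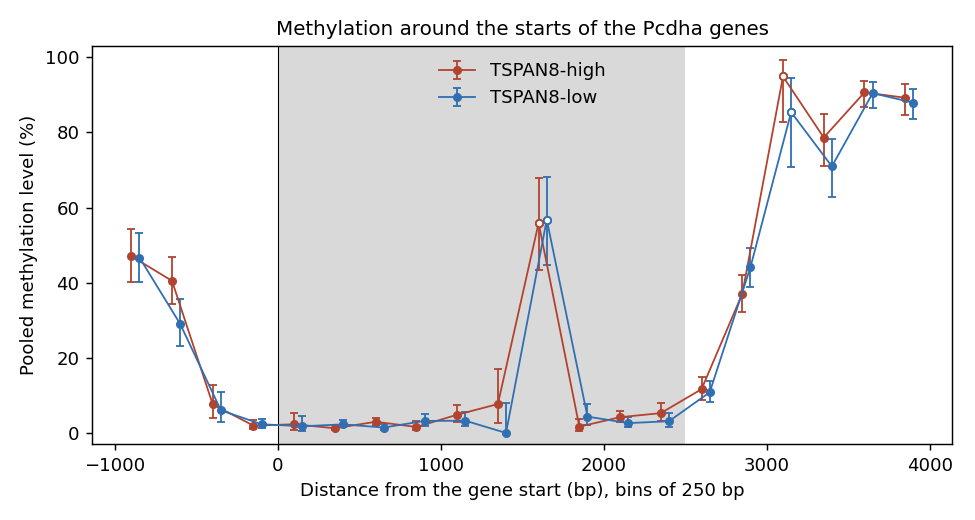
Pooled methylation level (%, with 95% exact intervals) in bins of 250 bp around the starts of the 14 Pcdha genes, TSPAN8-high in red and TSPAN8-low in blue; the grey band is the variable exon segment, and open symbols mark bins with data from fewer than 3 genes. Levels are low from 500 bp before the start to about 2500 bp after it. They are intermediate farther ahead of the start and high from about 3000 bp after it. The peak in the bin from 1500 bp comes from Pcdhac1 alone.

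The unmethylated stretch ran from shortly before the start to about the end of the segment. Pooled over the genes, the level was 47.1% and 46.7% from 1000 to 750 bp before the start, 7.60% and 6.02% from 500 to 250 bp before it, and 1.95% and 2.32% in the last 250 bp. It was 5.28% and 3.13% from 2250 to 2500 bp after the start, and then 11.7% and 10.8%, 37.0% and 44.1% in the next 2 bins of 250 bp. From 3500 to 3750 bp after the start it was 90.6% and 90.4%. Different genes supply the bins, so the change was also read within genes. In 13 of 14 genes the 1500 bp after the segment were more methylated than the segment itself in both libraries. Some of these 13 genes had only 1 to 3 cytosines there.

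The exception was Pcdha5, whose following 1500 bp stood at 2.72% and 9.36%, against 5.87% and 2.31% in the segment. Across genes the level in these 1500 bp ran from 2.72% at Pcdha5 to 100% at Pcdha6 in TSPAN8-high, and the median was 64.7% and 64.4%. Pcdha2 had 91.6% and 90.5% there, Pcdha11 had 85.3% and 83.2%, and Pcdhac2 had 97.1% and 98.1%. Pcdha1 was low, at 8.82% and 20.5% from 3 cytosines, as was Pcdha3 at 20.1% and 17.7%, and Pcdha7 was intermediate at 36.4% and 44.4%. These levels depend on which CpGs were read. At Pcdha1 none was read between 2664 and 7139 bp after the start, and at Pcdha5 none between 2962 and 5429 bp. Summing strands and libraries, the first CpG at 50% or more after the start lay at a median of 3381.5 bp, from 1716 bp at Pcdhac1 to 7139 bp at Pcdha1. The last measured CpG before that edge lay at a median of 2601.5 bp. In genes with sparse coverage, Pcdha1 among them, the edge is thus placed only between 2 distant CpGs. Methylation had returned by 1716 bp at Pcdhac1, while Pcdha5 was still below 50% at 2962 bp, so the place differed between these genes.

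**Figure D3:**
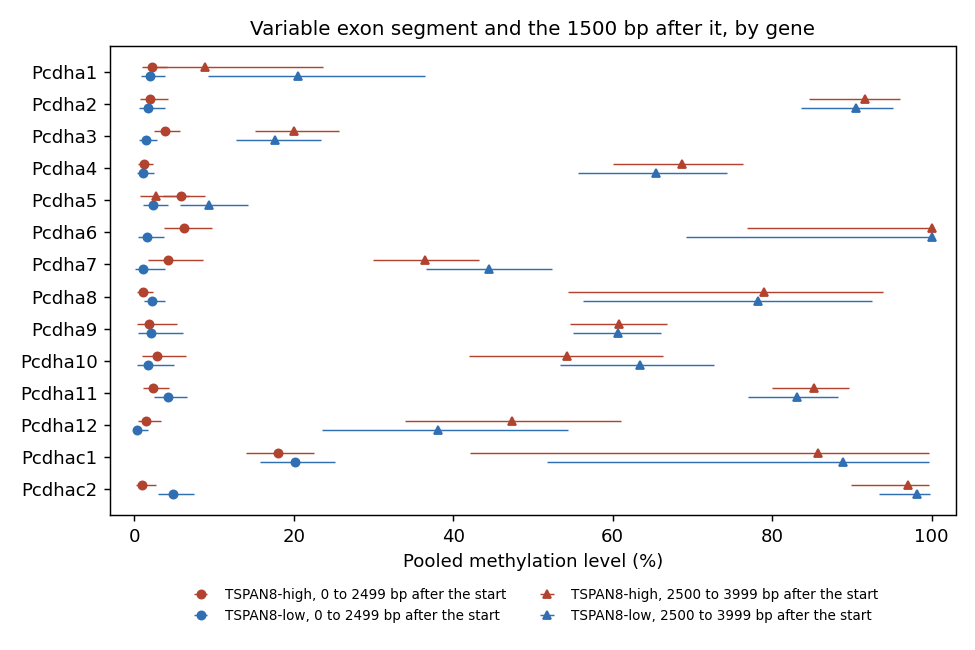
Pooled methylation level (%) of each Pcdha gene in its variable exon segment (circles) and in the 1500 bp after it (triangles), TSPAN8-high in red and TSPAN8-low in blue, with 95% exact intervals. Circles lie below 10% for every gene but Pcdhac1, and triangles lie to the right of the circles in both libraries for every gene but Pcdha5.

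Methylation was also higher farther ahead of the start. The promoter segments together held 111 cytosines, at 17.9% and 14.6%. In the last 500 bp before the start 13 genes were measured, with a median of 3.85% and 2.47%. Of these, 11 genes were below 10% for TSPAN8-high and 12 for TSPAN8-low. The exceptions had a single cytosine each: Pcdha5 at 4 of 12 and 4 of 10 reads, and Pcdha11 at 20% in TSPAN8-high from 10 reads. Between 1000 and 500 bp before the start, the 11 genes measured had a median of 50% and 42.5%, with Pcdha11 at 94.1% and 100% and Pcdhac2 at 11.4% and 22.4%. That stretch was more methylated than the variable exon segment in both libraries in 10 of these 11 genes, all but Pcdhac1. Coverage was thin there, with 1 cytosine each at Pcdhac1, Pcdha6 and Pcdha10. At Pcdhac1 the methylated reads were 1 of 8 in TSPAN8-high and 0 of 10 in TSPAN8-low, which allows up to 30%.

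The constant region was methylated, with 2 unmethylated islands. Its 136 cytosines averaged 81.0% and 81.7%, and 101 and 105 of them were above 80%. From 37147001 to 37170000, each of the 7 tiles of 1 kb with at least 3 CpGs was above 90% in both libraries. The tile from 37172001 to 37173000 stood at 7.41% (10 of 135 reads) in TSPAN8-high and 4.88% (4 of 82 reads) in TSPAN8-low. The next tile was at 70.4% and 54.9%, and the tile from 37177001 at 87.4% and 98.3%. Directly after it, from 37178001 to 37179000, 8 cytosines of 4 CpGs had 0 methylated reads of 91 in TSPAN8-high and 0 of 77 in TSPAN8-low, so that up to 3.30% and 3.90% are allowed. Neither low tile lay near a variable exon, and both were seen in both libraries. Which exon or intron they fall in was not determined. The last 3 measured tiles before the shared end were at 67.9%, 97.1% and 93.0% in TSPAN8-high and 61.9%, 95% and 87.5% in TSPAN8-low. After the shared end, 45 cytosines were at 97.0% and 93.5%.

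The remaining sequence, 382 cytosines, was at 70.2% and 70.1%. Besides the 45 cytosines after the shared end and 4 before the promoter segment of Pcdha1 (94.9% and 91.1%), it lay between genes. There, levels were 58.2% and 59.0% among the variable exons of Pcdha1 to Pcdha12 (197 cytosines), 64.9% and 65.5% between Pcdha12 and Pcdhac1 (63 cytosines) and 90.5% and 91.9% between Pcdhac1 and Pcdhac2 (73 cytosines). In the stretch from Pcdha12 to Pcdhac1 coverage was thin, and no cytosine was listed between 37026603 and 37038063, the longest gap of the cluster. Outside promoter and variable exon segments, 5 tiles of 1 kb were below 20% in both libraries. Besides the pair in the constant region and a tile after Pcdha5 (2.22% and 14%), the other two lay next to each other, from 36979001 to 36981000, at 6.82% and 11.3% in TSPAN8-high and 10.9% and 15.9% in TSPAN8-low. They lie inside Gm36858, a record the gene table lists as a pseudogene (36976294 to 36990270), whose 33 cytosines were at 24.7% and 26.4%. Another pseudogene record between variable exons, Gm18150 (37014056 to 37014631), was at 92.9% and 95.3% over 9 cytosines. These records were singled out after their values were seen.

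At low and middle CpG density the variable exons were less methylated than the intervening sequence and the whole table at the same density. With 3 to 9 listed CpGs in the surrounding 200 bp, 361 cytosines of the variable exons were at 2.57% and 1.88%. At the same density, 137 cytosines of the intervening sequence were at 54.5% and 54.8%, and all cytosines of the table at 65.0% and 65.8%. The promoter segments were near the variable exons there, at 3.91% and 6.06% over 68 cytosines, so the low level was not particular to the exons. With at most 2 listed CpGs, 45 cytosines of the variable exons were at 12.2% and 12.8%, against 89.1% and 89.4% over the table. The promoter segments were at 41.4% and 33.3% over 34 such cytosines. With 10 or more, 22 cytosines of the variable exons were at 1.44% and 2.17%, close to the 2.03% and 2.33% of the table. Listed CpGs are those the libraries cover, so CpGs that were not read are missing from this density.

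The study compared the fractions, and within the cluster their levels at single cytosines were close. They lay within 10 percentage points of each other at 72.9% of the cytosines, against 71.6% in the whole table. Only 1 cytosine was below 20% in one library and above 80% in the other. It lies at 37038088 on the minus strand, between Pcdha12 and Pcdhac1, with 0 of 14 methylated reads in TSPAN8-high, which allows up to 21.4%, and 10 of 12 in TSPAN8-low (Fisher's exact test, adjusted p = 0.179 over all cytosines of the table). By the authors' deposited table, its unadjusted p was 1.24e-05, as by Fisher's exact test here. The cytosines listed beside it had 7 reads each in TSPAN8-high and 6 in TSPAN8-low. Some of its 14 and 12 reads may thus have been counted more than once, which would make its p too small. This was not tested. The cytosines with the next lowest p were at 36978533, inside Gm36858 (20% against 100%, Fisher's exact test, adjusted p = 0.776), and at 37142796, 882 bp before the start of Pcdhac2 (22.2% against 75%, Fisher's exact test, adjusted p = 1). With both strands of the CpG summed, the gaps were smaller, with 60% and 89.5% at 36978533 and 21.1% and 57.1% at 37142796. A cytosine was called where its adjusted p was below 0.05 and its levels lay 20 percentage points or more apart. None of the 1057 was called, while 0.00111% of all cytosines were. At an unadjusted p below 0.05 there were 16, 5 higher and 11 lower in TSPAN8-high, a share of 1.51% against 1.46% over the table.

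By segment, differences between the libraries were small beside those between segments. The difference, TSPAN8-high minus TSPAN8-low, was 0.0615 percentage points over the cluster (95% Newcombe interval -1.15 to 1.27) and 0.414 in variable exons (-0.305 to 1.13). The latter was 1.72 on the plus strand alone and -1.21 on the minus strand alone, both outside that interval. In promoter segments the pooled difference was 3.28 (0.467 to 6.12), and with the 500 bp next to the start alone it was 0.201 (-1.44 to 1.93). In the constant region pooled levels were 77.0% and 82.6%, a difference of -5.61 (-8.52 to -2.69), but the mean over cytosines differed by -0.706. In the 99 cytosines up to the last 10 kb the pooled difference was -6.76 (-9.75 to -3.79), and in the 37 of the last 10 kb it was -0.340 (-7.32 to 6.65). The low tile from 37172001 held 135 reads in one library and 82 in the other, TSPAN8-low. Without this tile the difference was -2.83 (-5.50 to -0.191), and without both low tiles -1.46 (-3.68 to 0.719).

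Tiles of 1 kb were tested where they held 3 or more CpGs, and called at 10 percentage points or more with an adjusted p below 0.05. Of the 79 in the cluster 2 were called, against 0.268% of all tiles, and they had opposite signs. At an unadjusted p below 0.05 there were 12 of 79, or 15.2%, against 8.6% of all tiles. The tile from 37038001 to 37039000, between Pcdha12 and Pcdhac1, was at 21.4% and 77.8%, a difference of -56.3 percentage points (95% Newcombe interval -70.7 to -34.9, Fisher's exact test, adjusted p = 0.00210). All its 5 cytosines, on the minus strand within 61 bp, were lower in TSPAN8-high. Besides the cytosine at 37038088 described above, 3 were at 28.6% and 83.3% and the last at 42.9% and 50%. These 4 had 7 reads each in TSPAN8-high and 6 in the other library, so the same few reads may have been counted at each, which would make this p too small. The cytosine at 37038088, between them, had 14 and 12 reads, some of which may also have been counted more than once. This was not tested. With 1 CpG kept per 100 bp, this tile had too few CpGs to be tested.

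The other called tile, from 36959001 to 36960000, lies before Pcdha5, with its listed cytosines 576 to 1048 bp ahead of the start. It was at 78.4% and 47.7%, a difference of 30.7 percentage points (95% Newcombe interval 17.3 to 42.8, Fisher's exact test, adjusted p = 0.0103). Of its 9 cytosines, 6 were higher in TSPAN8-high and 3 were at 100% in both. The cytosine 577 bp before the start had 6 of 12 methylated reads against 4 of 27, and that on the opposite strand, at 576 bp, had 7 of 21 against 3 of 19. The low cytosine at 577 bp thus held 27 of the 88 reads of the tile in TSPAN8-low and 12 of 111 in TSPAN8-high. On the plus strand alone the difference was 44.1 (Fisher's exact test, adjusted p = 0.0121), and on the minus strand alone 18.2 (adjusted p = 0.750). With 1 CpG kept per 100 bp it was 29.1 and the call was lost (Fisher's exact test, adjusted p = 0.320). The tile with the third lowest p, from 37177001 in the constant region, differed by -10.9 percentage points (Fisher's exact test, adjusted p = 0.151).

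**Figure D4:**
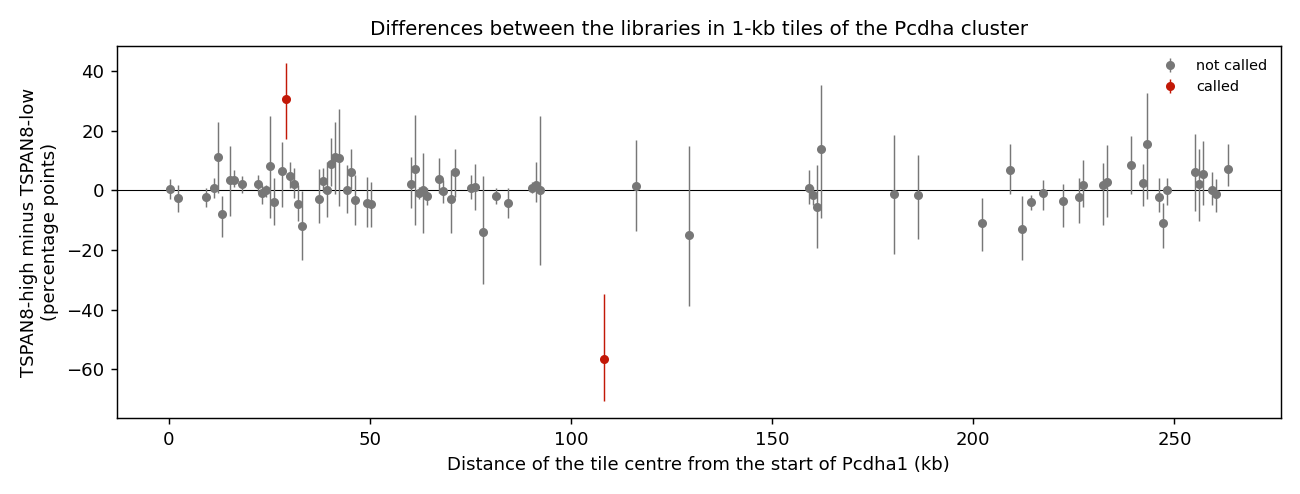
Difference in methylation level, TSPAN8-high minus TSPAN8-low (percentage points, with 95% Newcombe intervals), in 79 tiles of 1 kb with at least 3 CpGs against distance of the tile centre from the start of Pcdha1 (kb). The 2 called tiles, in red, lie at 30.7 and -56.3, and the grey tiles that were not called spread on both sides of 0.

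Windows of 1 kb either side of the gene start gave no call among the 14 genes by Fisher's exact test, against 0.738% of all gene end windows, and 4 of 14 had an unadjusted p below 0.05, against 15.2% of all. The window of Pcdha3 was at 20.8% and 11.3%, 9.48 percentage points apart (Fisher's exact test, adjusted p = 0.0129), just under the minimum of 10. Before its start the pooled levels were 33.7% and 23.2%, but the mean over its 11 cytosines there was 21.9% and 23.5%, so the sign of that difference depends on how the cytosines are weighted. Both strands of the CpG 710 bp before the start were deeply read, with 26 of 67 methylated reads against 10 of 47 on the plus strand and 10 of 38 against 12 of 19 on the minus strand. After the start the levels were 3.78% and 0.851%. The window of Pcdhac2 went the other way, at 4.32% and 12.1% (difference -7.74, Fisher's exact test, adjusted p = 0.0157), with 11.4% against 22.4% before its start and 0 of 201 reads, which allows up to 1.49%, against 15 of 262 after it. Pcdha5 was at 12.3% and 5.41% (Fisher's exact test, adjusted p = 0.0514) and Pcdha4 at 6.07% and 2.78% (adjusted p = 0.161). Windows of 500 bp either side gave smaller differences at Pcdha3 (3.92) and Pcdha4 (2.15), turned the sign at Pcdha5 (-1.31), and left Pcdhac2 with too few CpGs. With at least 10 reads, Pcdha3 (12.1) and Pcdhac2 (-12.5) were called. With 1 CpG kept per 100 bp their differences were 14 (Fisher's exact test, adjusted p = 0.323) and -9.93 (adjusted p = 0.471). The other 10 windows ran from 0.546% at Pcdha2 to 18.6% at Pcdha7 in TSPAN8-high and from 0.889% at Pcdha9 to 23.7% at Pcdha7 in TSPAN8-low, and 7 of the 14 were higher and 7 lower in TSPAN8-high. The median difference of the 14 was -0.0795 percentage points, beside -0.0292 over all windows.

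The beta and gamma protocadherin genes, which follow the Pcdha cluster on the same chromosome, were read in the same way. The start windows had a median level of 4.30% and 3.67% in the 14 Pcdha genes, 25.1% and 26.7% in 16 Pcdhb genes and 8.26% and 7.65% in 20 Pcdhg genes. The median over all gene end windows was 5.84% and 6.02%, but these lie at both ends of protein-coding genes and not at starts alone. The first 2500 bp of 22 Pcdhb genes had a median level of 12.8% and 12.5%, from 0% at Pcdhb5 to 87.5% and 70.0% at Pcdhb9. Both of these extremes rest on 1 cytosine, and 6 of the 22 Pcdhb genes had fewer than 5, whereas each Pcdha gene had at least 14 and each Pcdhg gene at least 7. Those of 21 Pcdhg genes had a median of 6.06% and 3.57% and reached 98.0% and 94.8% at Pcdhga7. Below 20% in TSPAN8-high were 16 of 22 Pcdhb genes, 17 of 21 Pcdhg genes and all 14 Pcdha genes. In TSPAN8-low these counts were 15, 17 and 13. Genes of a library are not replicates, so these values are set side by side without a test.

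**Figure D5:**
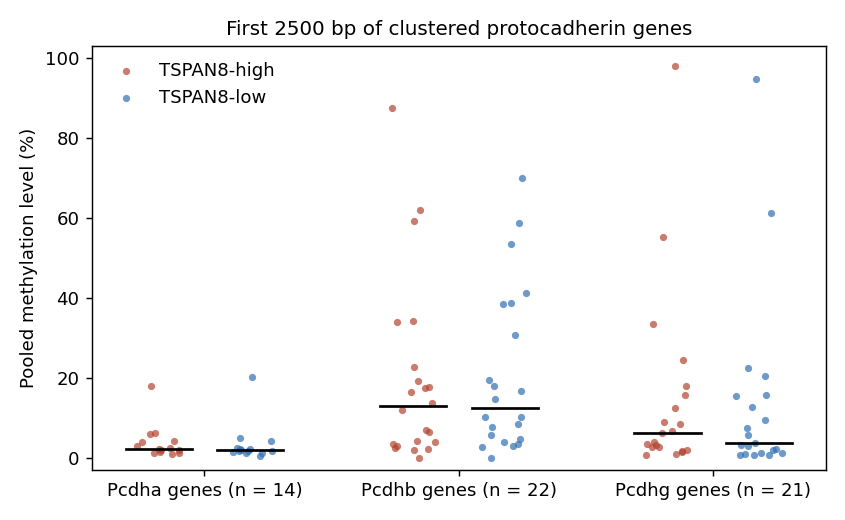
Pooled methylation level (%) of the first 2500 bp of each Pcdha, Pcdhb and Pcdhg gene, a point per gene, TSPAN8-high in red and TSPAN8-low in blue, with black lines at the medians. The Pcdha genes lie close to 0 except Pcdhac1, with medians of 2.28% and 1.85%, and the Pcdhb and Pcdhg genes spread more widely, with fewer than 5 cytosines in 6 Pcdhb genes.

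Genes that act on clustered protocadherin promoters in other cells were read at their CpG-richer end, which need not be the promoter. Of 20 such genes 18 were measured, and 13 of these were below 20% in both libraries, against 59.3% of all gene end windows. None was called, against 0.738% of all windows. All windows take in both ends of each protein-coding gene and not the CpG-richer end alone, so these shares are not like for like. Ctcf, the gene of the architectural factor, was at 0.261% and 0.559%, and Pds5a, a cohesin regulator, at 1.42% and 0.818%. The members not below 20% in both libraries were named after their values were seen. Rad21 was at 92.5% and 81.1%, Nipbl at 97.5% and 99.2%, and Wapl at 99.1% and 98.1%. Dnmt1 was at 97.7% and 98.5%, and Dnmt3l at 18.4% and 20%. Only Pds5b, another cohesin regulator, had an adjusted p below 0.05 (3.49% against 0 of 710 reads, which allows up to 0.423%, Fisher's exact test, adjusted p = 4.06e-05), with a difference below the minimum of 10 percentage points, and it was named after its values were seen. The median difference of the list was -0.0576 percentage points, beside -0.0292 over all windows.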

How the data were processed

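RRBS libraries were made from 300 ng of DNA digested with BfaI, MseI and MspI and read as paired reads of 50 bp, per the labels' protocols. The deposited table gives, per cytosine and library, the methylation level as a fraction rounded to 2 decimals and the read count. It also holds the authors' difference and p-value. The aligner and caller are not given in the sources used here. At 34665 listed cytosines within RefSeq promoter sequences of chromosomes 1 and 2, 100% lay on a C of the listed strand in GRCm38.p6, so positions are mm10, counted from 1.

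Methylated reads were taken as level times coverage, rounded. Fisher's exact tests (two-sided, Benjamini-Hochberg) were run over all 6745376 cytosines, 585220 tiles with at least 3 CpGs and 23852 gene end windows with at least 5 CpGs (Python 3.11.15, numpy 2.4.6, scipy 1.17.1). Cytosines needed 20 and tiles and windows 10 percentage points. A read covering several CpGs counts at each, which makes tile and window p-values too small and intervals over pooled cytosines too narrow. With no molecular identifiers, reads cannot be taken as separate molecules. On simulated reads, changes of 20 percentage points were called in 9 of 100 tiles and 50 of 100 windows, changes of 40 in 64 and 98, and neither in any of 100 cytosines. These changes were placed only in features of intermediate level, and reads were drawn independently. Of the 79 tiles of the cluster, 38 were below 20% and 25 above 80% in both libraries, so the simulated shares need not hold for them. Named were all 14 genes, the called cytosines and tiles (with fewer than 3, the 3 of lowest p), the most and least methylated gene segments, and of the regulators the 2 members with most reads. Members, segments and lists were chosen with earlier results of these data known. The edge of 50%, the density classes, the split of the start windows and the low tiles were added after values were seen. So were the stretch beyond 3000 bp after the starts, the pseudogene records and the first 2500 bp of Pcdhb and Pcdhg genes. The split of the Pcdha genes after Pcdha7 was added in the same way, as were Pds5b and the regulators not below 20% in both libraries. The 8 chromatin samples were not analysed here.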

Additional observations from a re-analysis of the deposited data

How the results depend on the processing

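Differences between the libraries (TSPAN8-high minus TSPAN8-low, in percentage points) moved beyond their counting interval in these settings. With at least 20 reads they were 3.33 over the cluster, 8.13 in promoter segments, 2.80 in variable exons, -10.4 in the constant region and -2.99 in the intervening sequence, from 68, 8, 28, 4 and 28 cytosines. The plus strand alone gave 1.42 over the cluster and 1.72 in variable exons, and the minus strand alone -1.45 and -1.21. In the constant region the difference was -2.55 with 1 CpG kept per 100 bp, -0.706 as a mean over cytosines and -0.340 in the last 10 kb (-6.76 in the rest of the region). Leaving out both low tiles, an alternative chosen after seeing the data, gave -1.46. In promoter segments it was 0.201 with 500 bp. Called tiles numbered 0 with at least 10 reads, at least 20 reads or 1 CpG kept per 100 bp, and 1 on the plus strand alone, on the minus strand alone or with 500-bp tiles. Called gene start windows numbered 2 with at least 10 reads or no minimum difference and 1 with at least 20 reads or on the minus strand alone. The window of Pcdha5 turned to -1.31 with 500 bp either side. No cytosine was called in any setting tried. The other 29 segment values and counts were within the limits set. Where a value moved, the cause was not tested, except that fewer CpGs were tested under the read minimums and thinning. With 1 library per fraction, no replicate could be left out, and at a median of 10 reads per cytosine small differences at single sites could not be detected.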
